A study of Mus musculus with 4 samples.

Results

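The mitosis genes described here are 46 genes listed by symbol: cyclins and kinases of the G2 and M phases, kinesins, and spindle, kinetochore, cytokinesis and condensin genes. Of these, 45 were measured, each at its brightest probe set with a single gene symbol, among 19938 named genes. Ccnb1 had no such probe set in the annotation used and was not analysed here. RNA came from mouse dendritic cells grown from whole bone marrow in 20 ng/mL GM-CSF, under which myeloid precursors divide and turn into dendritic cells. On day 10 the cells were electroporated with a control siRNA (si-Ctrl) or an siRNA against the orphan nuclear receptor NR4A3 (si-NR4A3). After 24 hours they either stayed unstimulated or received LPS at 100 ng/mL, a bacterial product that TLR4 senses, and they were harvested 24 hours later. Each of the 4 combinations of siRNA and stimulation has 1 Affymetrix Mouse Gene 1.0 ST array. For the strain, the growth protocol names BALB/c whereas the sample characteristics name C57BL/6, and neither a genotype nor an age is stated. All groups share the culture and the electroporation.

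With 1 array per condition, a difference between a pair of arrays lacks both a replicate check and a p-value, and precision is limited by how few arrays there are. Levels are log2 values, and a difference of 1 is 2-fold. Gene counts use a difference of at least 1.5-fold, and the members' counts are set beside the share of all 19938 named genes past the same fold. The average effects of LPS and of silencing over all 4 arrays were also tested, with limma and Benjamini-Hochberg adjustment. Nr4a3 itself stood at 11.21 and 11.77 with control siRNA, without and with LPS, and at 7.15 and 9.39 with its siRNA. It was thus lower with its siRNA in both states, by 16.6-fold without LPS and by 5.21-fold with LPS. Of 12 dendritic cell markers, 10 lay at or above the array's median level on all 4 arrays, among them Itgax and Cd74, while Flt3 lay below it on all 4. Macrophage markers were present too, with 9 of 10 above the median on every array. Of 5 monocyte and 8 granulocyte markers measured, 1 and 2 lay above it on every array. Of 9 markers of bone marrow precursors, 7 lay below the median on every array, including the granule genes Mpo, Elane, Prtn3 and Ctsg. All measured markers of B cells, T and NK cells and erythroid cells did so as well.

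As background, a cell enters mitosis when cyclin A and B type proteins activate the kinase Cdk1. Chromosomes are then compacted by condensin, attached to spindle microtubules through kinetochores, and held by the spindle checkpoint until the anaphase-promoting complex is released to destroy cyclins and securin. The transcripts of most of these proteins are made in G2 and M phase and are low in resting cells, so their level in a culture is commonly read as a sign of division. Dendritic cells in GM-CSF cultures divide while immature and leave the cell cycle as they mature, and LPS is a maturation signal.

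Mitosis genes stood highest in unstimulated cells with control siRNA. That array was the highest of the 4 for 44 of 45 members, and 29 members ran, from high to low, in the order unstimulated control siRNA, unstimulated NR4A3 siRNA, LPS with control siRNA and LPS with NR4A3 siRNA. Another 11 had the last pair exchanged. The lowest level was found with NR4A3 siRNA and LPS for 32 members and with control siRNA and LPS for 12. The median level of the members was 8.07 in unstimulated cells with control siRNA, 7.24 in unstimulated cells with NR4A3 siRNA, 6.44 with control siRNA and LPS, and 6.28 with NR4A3 siRNA and LPS. Each array's own median over named genes lay between 6.65 and 6.67. In the same order, 4, 13, 26 and 33 of the 45 members were below that median, so that with LPS most members lay among the dimmer genes of the array. The members Birc5, Ttk, Cenpf and Kif4 were below the array median on all 4 arrays, 29 were below it on 1 to 3 arrays, and 12 on none. In bulk RNA, fewer dividing cells and less of these RNAs per cell cannot be told apart.

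**Figure D1:**
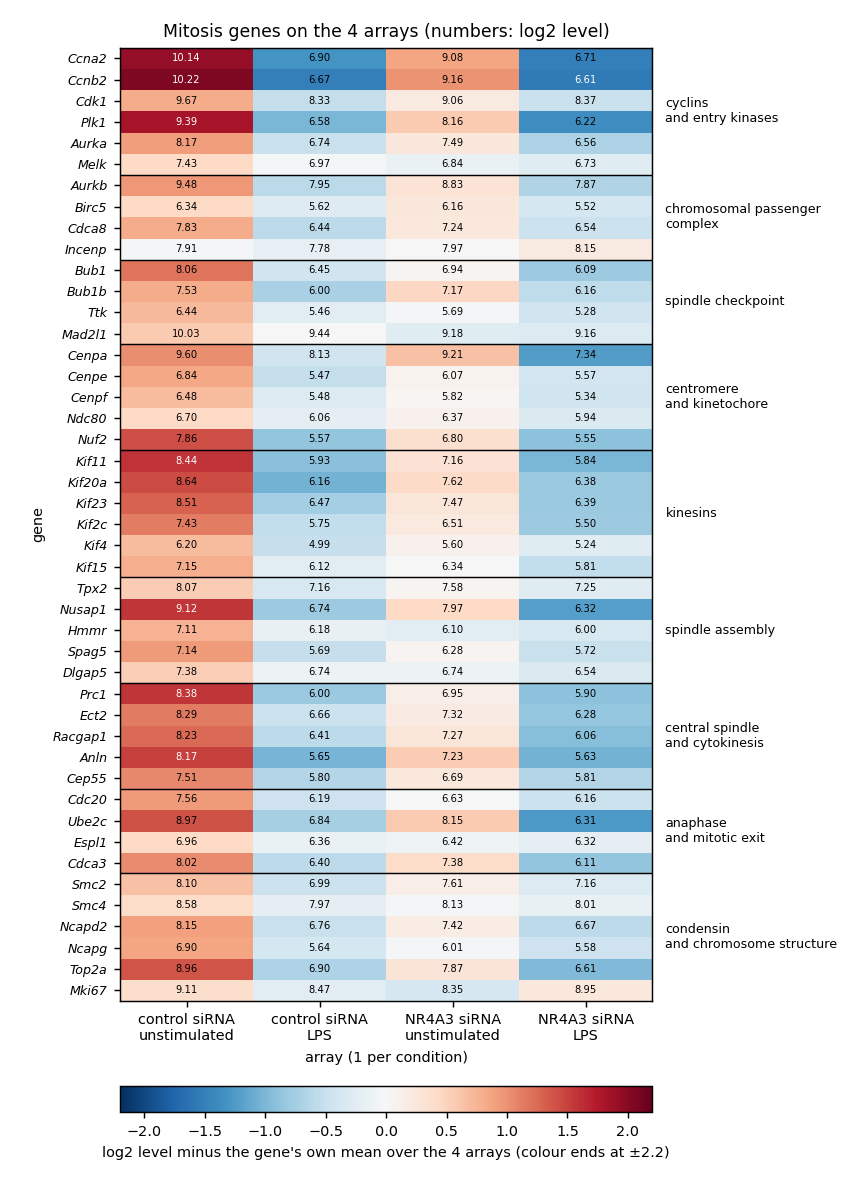
Levels of the 45 measured mitosis genes on the 4 arrays (columns), grouped by role. The number in each cell is the log2 level and the colour is that level minus the gene's own mean over the 4 arrays. The first column is the highest for all members except Incenp, and Mki67 has its second highest level in the last column.

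The start regions of these genes share short sequence elements, and they are shown here because the members moved together across the arrays. Promoters of G2 and M phase genes are known for the CHR element (cell cycle genes homology region), whose letters are TTTGAA and through which the DREAM and MuvB complexes act, and for CCAAT boxes, which bind NF-Y. Windows from 250 bases before to 50 bases after the transcription start were taken from RefSeq (GRCm38.p6) and searched for TTTGAA and for CCAAT on both strands. Windows were matched for 38 of the 45 measured members, 3 of them with several starts, which gave 41 windows. Those of Ccna2, Kif20a, Aurkb, Tpx2, Incenp, Dlgap5 and Smc4 were not matched. TTTGAA occurred in 34 of the 41 windows (82.9%), against 17.9% of all 32851 windows and 11.6% of the 10367 windows of genes whose mean level reached the median. CCAAT occurred in 73.2% of the members' windows and in 37.4% of all windows. Both TTTGAA and at least 2 CCAAT boxes were present in 43.9% of the members' windows and in 2.09% of all windows. The median GC content was 59% in the members' windows, 52.7% in all and 61% in those of the genes that reached the median.

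The 5 members with the largest LPS differences under control siRNA that hold TTTGAA and at least 2 CCAAT boxes are printed first, to show how the elements are arranged. They are followed by Nusap1, which has the largest such difference among members with neither motif. Sequences run 5′ to 3′ on the strand of the gene in build GRCm38.p6, and capitals mark TTTGAA and CCAAT or their reverse complements, TTCAAA and ATTGG.
Ccnb2 (chr9:70421505-70421804, minus strand): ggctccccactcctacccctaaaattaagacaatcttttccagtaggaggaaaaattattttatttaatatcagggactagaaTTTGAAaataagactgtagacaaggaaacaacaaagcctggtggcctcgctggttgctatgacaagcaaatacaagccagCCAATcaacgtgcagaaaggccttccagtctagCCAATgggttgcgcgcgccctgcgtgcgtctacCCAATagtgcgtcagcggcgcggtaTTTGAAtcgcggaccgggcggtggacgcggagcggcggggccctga
Ube2c (chr2:164769679-164769978, plus strand): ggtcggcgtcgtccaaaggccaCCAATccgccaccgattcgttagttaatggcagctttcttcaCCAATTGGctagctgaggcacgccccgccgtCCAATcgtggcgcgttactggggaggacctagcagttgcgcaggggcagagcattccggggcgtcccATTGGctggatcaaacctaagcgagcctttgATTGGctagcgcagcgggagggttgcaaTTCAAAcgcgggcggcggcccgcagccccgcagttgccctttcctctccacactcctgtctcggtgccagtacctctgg
Top2a (chr11:99024140-99024439, minus strand): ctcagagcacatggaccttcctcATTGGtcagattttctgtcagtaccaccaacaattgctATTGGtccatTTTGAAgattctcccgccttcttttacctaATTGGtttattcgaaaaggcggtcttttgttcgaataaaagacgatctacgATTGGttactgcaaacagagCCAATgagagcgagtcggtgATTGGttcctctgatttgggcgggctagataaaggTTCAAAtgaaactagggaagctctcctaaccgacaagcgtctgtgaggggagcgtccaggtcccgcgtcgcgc
Ect2 (chr3:27153829-27154128, minus strand): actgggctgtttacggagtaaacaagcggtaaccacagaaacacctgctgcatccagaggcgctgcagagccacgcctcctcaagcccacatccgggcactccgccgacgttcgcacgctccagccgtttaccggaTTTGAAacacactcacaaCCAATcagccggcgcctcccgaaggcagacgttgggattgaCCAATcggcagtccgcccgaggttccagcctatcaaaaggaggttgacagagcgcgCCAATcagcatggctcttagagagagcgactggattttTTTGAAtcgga
Cdca3 (chr6:124829926-124830225, plus strand): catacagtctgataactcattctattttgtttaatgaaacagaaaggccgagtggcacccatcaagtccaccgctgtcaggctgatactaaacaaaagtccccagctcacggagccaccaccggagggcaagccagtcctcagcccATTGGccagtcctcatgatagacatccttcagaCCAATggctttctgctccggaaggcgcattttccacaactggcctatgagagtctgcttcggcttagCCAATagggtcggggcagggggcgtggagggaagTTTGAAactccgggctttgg
Nusap1 (chr2:119618048-119618347, plus strand): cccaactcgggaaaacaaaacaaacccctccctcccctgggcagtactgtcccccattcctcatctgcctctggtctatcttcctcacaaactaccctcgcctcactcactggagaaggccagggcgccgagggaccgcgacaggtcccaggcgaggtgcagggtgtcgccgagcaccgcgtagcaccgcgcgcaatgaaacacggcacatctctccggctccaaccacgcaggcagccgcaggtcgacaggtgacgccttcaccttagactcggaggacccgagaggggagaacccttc

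In Ccnb2, the gene of cyclin B2, 3 CCAAT boxes began at positions -87, -54 and -21 from the start, and the 2 TTTGAA matches at -167 and 4. The Top2a window held 6 CCAAT matches and 2 TTTGAA matches, at -179 and, on the reverse strand, at -23. In Ube2c, a CCAAT box and its reverse complement overlap in the letters CCAATTGG and were counted as 2 matches. A TTTGAA and a CCAAT match overlapped in 1 of the members' 41 windows. Across the members' windows, 32 of 43 TTTGAA matches (74.4%) began within 50 bases of the start, against 24.9% of the 6694 matches in all other windows. Of the members' 69 CCAAT matches, 63.8% began within the 100 bases before the start, against 43.5% of the 17638 in other windows. These are matches of letters, and no binding was measured.

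**Figure D2:**
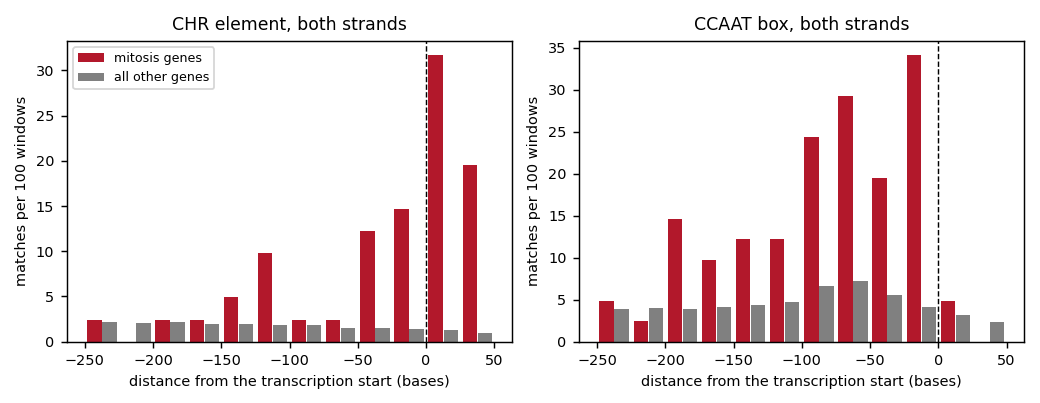
Matches of the CHR element (left) and the CCAAT box (right) per 100 windows, in bins of 25 bases of distance from the transcription start, for mitosis genes (41 windows, red) and all other genes (grey). The members' CHR matches gather within 50 bases of the start, while CCAAT matches gather in the 100 bases before it.

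The 31 members with TTTGAA in a window had a median difference of -1.45 between LPS and no LPS under control siRNA, and the 7 without it one of -1.38. Under NR4A3 siRNA the medians for LPS were -0.88 and -0.63. For silencing they were -0.81 and -0.85 in unstimulated cells, and -0.09 and -0.24 with LPS. The members without it were Birc5, Bub1, Cenpe, Mad2l1, Melk, Nuf2 and Nusap1. Members were also split by CCAAT boxes, 18 with at least 2 and 20 with fewer. In that order their medians for LPS were -1.41 and -1.60 under control siRNA, and -0.72 and -0.95 under NR4A3 siRNA. For silencing they were -0.76 and -0.87 in unstimulated cells, and -0.16 and -0.09 with LPS.

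The comparison of LPS with no LPS under control siRNA sets the activated culture beside the unstimulated one. Every measured member was lower with LPS in this pair of arrays. Of the 45, 43 lay 1.5-fold or more below the unstimulated level, 33 of them 2-fold or more (2.04% of all named genes were), and none was 1.5-fold higher, while 5.21% of all named genes were at least 1.5-fold lower and 5.6% higher. The median difference was -1.42 (2.68-fold lower), against 0.00 over all named genes, and it ran from -3.56 for Ccnb2 to -0.14 for Incenp. Melk, at -0.46, was the other member short of 1.5-fold. Among the 30 members whose mean level reached the median of all named genes, 28 were 1.5-fold or more lower, beside 9.12% of the genes of that level, and none was higher, beside 9.9%.

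With NR4A3 siRNA, LPS-treated cells were lower than unstimulated ones for 43 of 45 members, by a median of -0.75 (1.68-fold). At least 1.5-fold lower were 26 members, beside 3.81% of all named genes, and 1 member, Mki67, was at least 1.5-fold higher, beside 5.66%. This pair of arrays shares none with the pair under control siRNA. Of the 30 brighter members 22 were lower past 1.5-fold, beside 6.69% of genes of that level, and 1 was higher, beside 10.3%. The largest differences were those of the same genes in both pairs: Ccnb2 (-2.55), Ccna2 (-2.37) and Plk1 (-1.94). Mad2l1, Hmmr and Espl1 had the smallest, between -0.02 and -0.10. Across the 45 members the LPS differences of the pairs had a Pearson correlation of 0.906, a description over genes that share their arrays. Over all named genes it was 0.862.

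The average LPS effect was tested in an additive model of siRNA and LPS over the 4 arrays, which has 1 residual degree of freedom. Of the 30 members in that fit, 25 fell with LPS at an adjusted p under 0.05 (limma) and none rose, beside 15.2% of 10034 genes that fell and 16.8% that rose. The average effects of those called ran from -3.05 for Ccnb2 (SE 0.22, limma adjusted p = 0.00021) to -0.43 for Dlgap5 (SE 0.13, limma adjusted p = 0.0487). Not called were Melk, Mad2l1, Smc4, Incenp and Mki67. Genes entered by their mean over the 4 arrays, so a member high only without LPS could enter. With all 19938 genes entered, 29 of 45 members fell and none rose, and 2844 genes were called in either direction (limma). Whether the cultures behind the arrays were separate is not stated, so these p-values cover only the spread among these 4 arrays.

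Silencing of NR4A3 in unstimulated cells asks what the receptor contributes before a microbial signal. Here 44 of 45 members were lower with NR4A3 siRNA, Incenp at 0.05 being the exception. At least 1.5-fold lower were 36 members, beside 2.65% of all named genes, and 12 were at least 2-fold lower, beside 0.908%. None was 1.5-fold higher, beside 0.863%. The median difference was -0.81 (1.75-fold lower), against 0.03 over all named genes. Prc1 (-1.43), Kif11 (-1.27) and Plk1 (-1.23) had the largest differences, and Birc5 (-0.18) and Ndc80 (-0.33) the smallest after Incenp. The 30 members at or above the median level and the 15 below it had medians of -0.79 and -0.81. Of the former, 24 were lower past 1.5-fold, beside 4.42% of genes of that level, and none was higher, beside 1.53%. This comparison and that of LPS under control siRNA share the array of unstimulated cells with control siRNA, so a high level on that array enters both.

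In LPS-treated cells, where Nr4a3 itself was 5.21-fold lower with its siRNA (16.6-fold without LPS), most members stood near their level with control siRNA. The median difference was -0.09, with 32 members below 0 and 13 above it, against 0.00 over all named genes. Only Cenpa was at least 1.5-fold lower, 1 of 45 (2.56% of all named genes were), and none was 1.5-fold higher (2.02%). By their mean over the 4 arrays, members at or above the median level had a median of -0.09 and those below it -0.06. Among genes of the former level, 4.41% were lower and 3.72% higher past 1.5-fold. With LPS, however, 26 of the 45 members lay below the array median with control siRNA and 33 with NR4A3 siRNA. Differences among such dim genes can be understated, and the part of this was not tested. Cenpa, at -0.80, Ube2c, at -0.53, and Mki67, at 0.48, were the farthest from 0. Across members the differences of silencing without and with LPS had a Pearson correlation of 0.285, while over all named genes it was 0.571, both as descriptions.

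**Figure D3:**
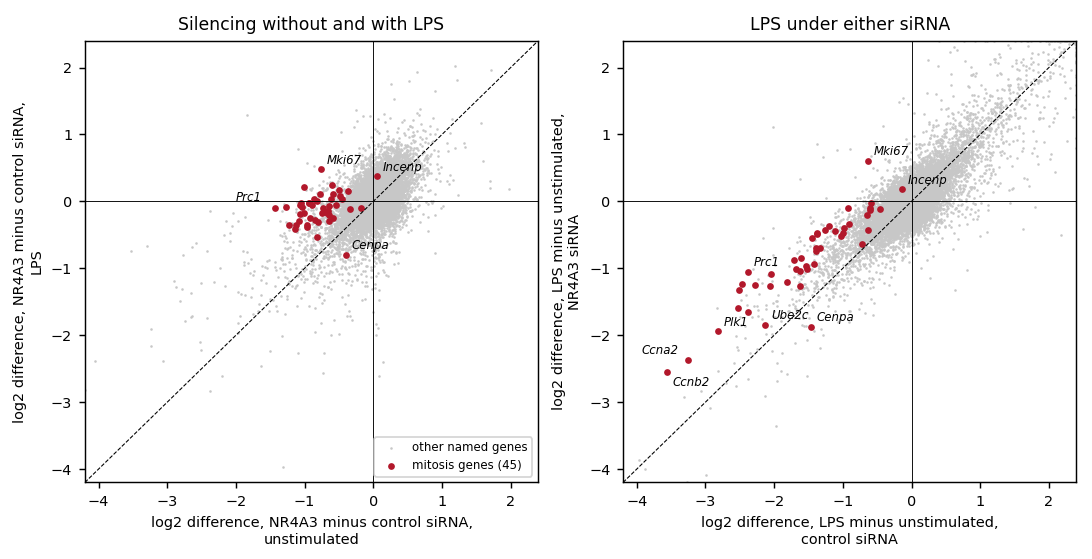
Log2 differences of NR4A3 against control siRNA without (x) and with LPS (y) on the left, and of LPS against no LPS under control (x) and NR4A3 siRNA (y) on the right. Red points are the 45 mitosis genes, grey points all named genes (values past the axis ends are drawn at the ends), and the dashed line marks equal differences. On the left the red points spread leftwards at heights near 0, and on the right nearly all lie below 0 and above the dashed line.

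Since the pairs with and without LPS share no array, the difference between their silencing effects uses all 4 arrays. It equals the LPS difference with NR4A3 siRNA minus that with control siRNA. The array of unstimulated cells with control siRNA, highest for 44 of 45 members, enters it too. A high level on that array alone raises this quantity. This quantity was above 0 for 44 of 45 members, with a median of 0.66 (1.59-fold), against 0.00 over all named genes. It was at least 1.5-fold for 27 members, beside 1.72% of all named genes, and past 1.5-fold in the other direction for none, beside 1.39%. Among the 30 brighter members it was past 1.5-fold for 18, beside 2.7% of genes of that level, with 1.91% in the other direction. Prc1 (1.33), Mki67 (1.24) and Kif20a (1.23) were the farthest above 0, and Cenpa (-0.41) was the member below it. No test of it is possible, since 4 arrays in 4 conditions leave no residual degree of freedom for it. The additive fit counts this difference as residual. In that fit silencing lowered 3 of 30 members at an adjusted p under 0.05 (limma) and raised none, beside 4.51% of 10034 genes lowered and 3.29% raised. The 3 were Ube2c (-0.67, SE 0.11, limma adjusted p = 0.0229), Cenpa (-0.59, SE 0.13, adjusted p = 0.0428) and Nusap1 (-0.78, SE 0.17, adjusted p = 0.0482). Unadjusted, 20 of the 30 had p under 0.05, all lower with silencing. The count of called members ranged from 0 to 7 under other settings, with 0 when all 19938 genes entered the limma fit. There 19 members had an unadjusted p under 0.05. No share of all genes stands beside these unadjusted counts, so they are not read as a result about the members.

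**Figure D4:**
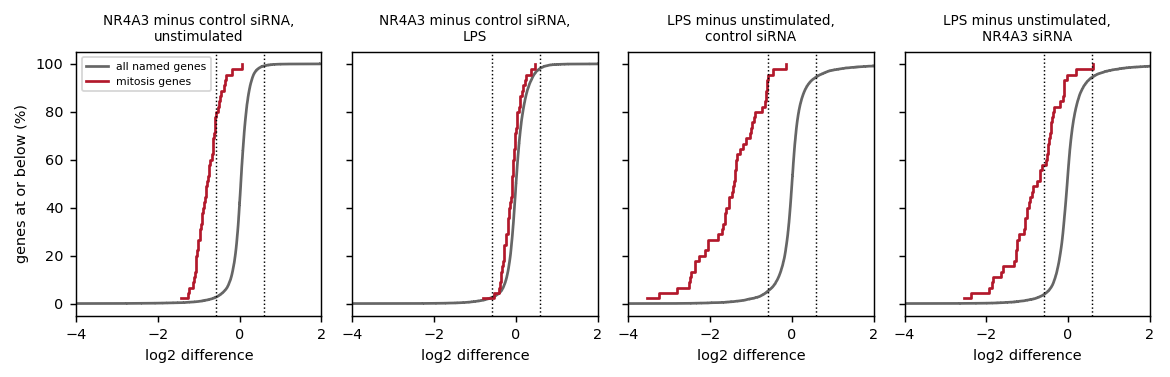
Share of genes (%) at or below each log2 difference, for mitosis genes (red) and all named genes (grey), in the 4 comparisons. Dotted lines mark 1.5-fold in either direction. The red curve lies to the left of the grey one in the first, the third and the last panel, and close to it in the second, silencing with LPS.

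Macrophage and dendritic cell markers differed between the siRNAs as well. Of 10 macrophage markers, 3 were at least 1.5-fold higher with NR4A3 siRNA in unstimulated cells, beside 0.863% of all named genes. These were the complement genes C1qa, C1qb and C1qc (1.12, 1.19 and 1.22), and the median of the list was 0.26. With LPS, 5 of the 10 were higher past that fold, beside 2.02%, with a median of 0.57, and none was lower. Of 12 dendritic cell markers, 4 stood lower past that fold in unstimulated cells, beside 2.65%, and 1 stood higher, beside 0.863% (list median -0.15). The migration receptor gene Ccr7, at -3.53, had the largest share in their mean. With LPS, 3 of the 12 stood lower with NR4A3 siRNA, beside 2.56%, and none higher, beside 2.02%. The mean level of the 10 macrophage markers was 10.64 without and 9.97 with LPS under control siRNA, and 11.10 and 10.67 under NR4A3 siRNA. That of the 12 dendritic cell markers was 10.10 and 10.07 under control siRNA, and 9.62 and 9.80 under NR4A3 siRNA. The 9 precursor markers had means between 5.97 and 6.16 on all 4 arrays, below the array median. Their median difference for silencing without LPS was 0.06. Past 1.5-fold, 1 of the 9 was lower there, beside 2.65% of all named genes, and none was higher, beside 0.863%. Among them Kit, the stem cell factor receptor, stood at 6.97 and 7.21 with control siRNA and at 5.88 and 7.99 with NR4A3 siRNA, without and with LPS. Kit was thus lower with NR4A3 siRNA in unstimulated cells (-1.09), the 1 precursor marker past 1.5-fold there, and its level of 5.88 lay below the array median. It was higher with LPS under NR4A3 siRNA (2.12), unlike most mitosis genes. Cd34, a surface marker of progenitors, was at 0.08 for silencing without LPS and at -1.33 with LPS. The part of such shifts in the levels of mitosis genes was not tested.

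The cyclins and entry kinases had the largest LPS differences. In the sentences that follow, levels are given without and then with LPS. Ccnb2, cyclin B2, stood at 10.22 and 6.67 with control siRNA and at 9.16 and 6.61 with NR4A3 siRNA. Ccna2, cyclin A2, which acts in S phase and at mitotic entry, stood at 10.14 and 6.90 and at 9.08 and 6.71. Both cyclins were thus high in unstimulated cells, lower there with NR4A3 siRNA by 2.09-fold and 2.10-fold, and nearly level between the siRNAs with LPS. The LPS difference was 11.8-fold for Ccnb2 and 9.50-fold for Ccna2 with control siRNA, and 5.84-fold and 5.17-fold with NR4A3 siRNA. Plk1, the polo-like kinase of centrosome maturation and mitotic entry, stood at 9.39 and 6.58, and at 8.16 and 6.22. Its 2.35-fold lower level with NR4A3 siRNA was the third largest of all members. Cdk1, the kinase that the cyclins activate, stood at 9.67 and 8.33, and at 9.06 and 8.37. It kept a level well above the array median with LPS, where the siRNAs differed by 0.03. Aurka, the centrosomal Aurora kinase, had LPS differences of -1.42 with control and -0.93 with NR4A3 siRNA, and Melk, a kinase of dividing cells, of -0.46 and -0.11. In unstimulated cells NR4A3 siRNA came with a level 1.5-fold or more lower for all 6 measured genes of this role, as did LPS for 5 of 6 under either siRNA.

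The chromosomal passenger complex, which corrects faulty attachments of chromosomes to the spindle, did not move as a unit. Its kinase Aurkb stood at 9.48 and 7.95 with control siRNA, without and with LPS, and at 8.83 and 7.87 with NR4A3 siRNA. Cdca8, the borealin subunit, was also highest in unstimulated control cells, with differences of -0.59 for silencing without LPS and -1.39 for LPS under control siRNA. Incenp, the scaffold of the complex, stood at 7.91 and 7.78, and at 7.97 and 8.15. It varied by 0.38 over the 4 arrays, the smallest range of all members, and was the member whose highest level was with NR4A3 siRNA and LPS. Birc5 (survivin) stayed below the array median on every array, between 5.52 and 6.34. Its differences were -0.18 for silencing without LPS, and -0.72 and -0.63 for LPS under control and NR4A3 siRNA.

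Among spindle checkpoint genes, the kinase Bub1 stood at 8.06 and 6.45 with control siRNA and at 6.94 and 6.09 with NR4A3 siRNA, 2.17-fold lower with silencing in unstimulated cells. Mad2l1, the Mad2 protein that inhibits Cdc20, stood at 10.03 and 9.44, and at 9.18 and 9.16. Like Melk, Hmmr and Mki67, it stood lower with NR4A3 siRNA alone than with LPS under control siRNA. The difference of silencing was -0.85 without LPS, and LPS added -0.02 under NR4A3 siRNA. The BubR1 gene Bub1b went the other way in relative size, with -0.36 for silencing and -1.53 for LPS under control siRNA. Ttk, the Mps1 kinase, was at -0.75 and -0.98 but dim on every array.

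Centromere and kinetochore genes held the exception of the silencing comparison with LPS. Cenpa, the histone H3 variant that marks centromeres, stood at 9.60 and 8.13 with control siRNA and at 9.21 and 7.34 with NR4A3 siRNA. It was lower with NR4A3 siRNA by 1.31-fold without LPS and by 1.74-fold with LPS. Its LPS difference was larger in size under NR4A3 siRNA (3.66-fold) than under control siRNA (2.76-fold). Incenp, whose difference changed sign, was the other such member of the 45. Nuf2 of the Ndc80 complex stood at 7.86 and 5.57, and at 6.80 and 5.55, a level shared by both siRNAs with LPS. Ndc80 itself, which binds microtubules, differed by -0.33 for silencing and by -0.64 for LPS under control siRNA. The kinetochore motor Cenpe and the large kinetochore protein Cenpf were at -0.78 and -0.66 for silencing without LPS.

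All 6 kinesins, the microtubule motors of the spindle and midzone, were at least 1.5-fold lower in both comparisons with unstimulated control cells. Kif11, which pushes spindle poles apart, stood at 8.44 and 5.93 with control siRNA, and at 7.16 and 5.84 with NR4A3 siRNA. Kif20a and Kif23, motors of the central spindle, were 2.02-fold and 2.06-fold lower with silencing in unstimulated cells, and 5.55-fold and 4.14-fold lower with LPS under control siRNA. With LPS, the 6 kinesins differed between the siRNAs by -0.30 to 0.24. The microtubule depolymerase Kif2c, the chromokinesin Kif4 and Kif15 had silencing differences of -0.92, -0.60 and -0.81 without LPS.

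The LPS differences of the 5 spindle assembly factors under control siRNA ran from -0.65 to -2.37. Nusap1, a microtubule-bundling protein, stood at 9.12 and 6.74 with control siRNA and at 7.97 and 6.32 with NR4A3 siRNA. Hmmr, the hyaluronan receptor that also binds spindle poles, stood at 7.11 and 6.18, and at 6.10 and 6.00. As with Mad2l1, its silencing difference without LPS (-1.01) was followed by hardly any LPS difference under NR4A3 siRNA (-0.10). Tpx2, the activator of Aurora A, was at -0.49 for silencing without LPS and at -0.91 for LPS under control siRNA. Spag5 and Dlgap5, which stabilise spindle microtubules, were at -0.87 and -0.64 for silencing without LPS.

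Cytokinesis genes had some of the largest silencing differences, and all 5 were at least 1.5-fold lower in 3 of the 4 comparisons. Prc1, which bundles microtubules of the central spindle, stood at 8.38 and 6.00 with control siRNA and at 6.95 and 5.90 with NR4A3 siRNA. Its 2.69-fold lower level in unstimulated cells was the largest silencing difference of all members. Anln, the anillin of the contractile ring, stood at 8.17 and 5.65, and at 7.23 and 5.63. Ect2, the activator of RhoA at the division plane, and Racgap1, its partner at the midzone, were 1.95-fold lower each with silencing in unstimulated cells, and Cep55, which acts in abscission, 1.76-fold. With LPS these 5 genes differed between the siRNAs by -0.38 to 0.01.

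Genes of anaphase and mitotic exit followed the same order. Ube2c, the ubiquitin-conjugating enzyme of the anaphase-promoting complex, stood at 8.97 and 6.84 with control siRNA and at 8.15 and 6.31 with NR4A3 siRNA. It was lower with NR4A3 siRNA in both states, by 1.76-fold and 1.45-fold, and had the lowest adjusted p of the members for silencing in the additive fit. Cdc20, the activator of the complex that the checkpoint restrains, was at -0.93 for silencing without LPS and at -0.03 with LPS. The separase gene Espl1 and Cdca3, which acts in mitotic entry, were at -0.54 and -0.64 without LPS.

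Condensin and chromosome genes had a median of -0.75 for silencing in unstimulated cells and of -1.19 for LPS under control siRNA. Top2a, the topoisomerase that untangles sister chromatids, stood at 8.96 and 6.90 with control siRNA and at 7.87 and 6.61 with NR4A3 siRNA. With the mean of its probe sets in place of the brightest, its difference went from -1.09 to -0.56 for silencing without LPS, short of 1.5-fold, and its LPS differences from -2.06 to -1.004 under control siRNA and from -1.27 to -0.60 under NR4A3 siRNA. Of the condensin genes, Ncapd2 and Ncapg were at -0.73 and -0.89 for silencing without LPS, and the core subunits Smc2 and Smc4 at -0.50 and -0.45. Mki67, which encodes the proliferation marker Ki-67 that coats mitotic chromosomes, stood at 9.11 and 8.47 with control siRNA and at 8.35 and 8.95 with NR4A3 siRNA. It was thus 1.55-fold lower with LPS under control siRNA and 1.52-fold higher with LPS under NR4A3 siRNA, where it no longer followed the other members. With the quantile normalization repeated over named genes that higher level was a difference of 0.53, and with cyclic loess 0.57, both short of 1.5-fold, and the direction held under all scalings tried. Its average LPS effect in the additive fit was -0.02 (SE 0.27, adjusted p = 0.974).

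Further genes of mitosis, from a list of 68 of which 65 were measured, had medians of smaller size. With LPS, 5 of the 65 stood above 0 under control siRNA and 10 under NR4A3 siRNA. For silencing in unstimulated cells 27 of 65 were at least 1.5-fold lower, beside 2.65% of all named genes, with a median of -0.49, and with LPS 1 of 65, beside 2.56%, with a median of -0.03. For LPS, 45 were lower under control siRNA, beside 5.21% (median -0.83), and 13 under NR4A3 siRNA, beside 3.81% (median -0.30). Kif18b, a kinesin of astral microtubules, stood at 7.97 and 6.19 with control siRNA and at 7.09 and 6.39 with NR4A3 siRNA. Sgo2a, a protector of centromeric cohesion, and the centrosomal kinase Nek2 had differences of -1.64 and -1.62 for LPS under control siRNA. Trip13, the ATPase that disassembles checkpoint complexes, was the 1 gene of the list at least 1.5-fold higher with LPS, at 0.88 under control siRNA and 1.60 under NR4A3 siRNA, and it rose on average in the additive fit (limma, adjusted p = 0.00276). In that fit 15 of 31 genes of the list fell with LPS, beside 15.2% of all genes in the fit, and 2 rose, beside 16.8%. Silencing lowered 2 of the 31, near the 4.51% of all genes in the fit.

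Core subunits of other machines of mitosis had smaller median differences than the members for LPS and for silencing in unstimulated cells. None of 13 core genes of the anaphase-promoting complex and none of 11 cohesin genes was 1.5-fold different in any of the 4 comparisons. Over all named genes, 0.863% to 5.66% passed that fold in a given direction. In lists this short, counts of 0 lie near those shares and are not read as a result. Their medians for LPS under control siRNA were -0.05 and -0.01, and for silencing in unstimulated cells -0.06 and -0.21. In the additive fit silencing lowered 1 of the 13 and LPS 2 (limma), beside 4.51% and 15.2% of all genes in the fit, and no cohesin gene was called. The sign of the cohesin median for LPS changed with the scaling, between -0.03 and 0.02.

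DNA replication genes had medians between those of the members and of the core subunits, except for silencing with LPS. Of 33 measured, 8 were at least 1.5-fold lower with silencing in unstimulated cells, beside 2.65% of all named genes (median -0.32), and 9 with LPS under control siRNA, beside 5.21% (median -0.43). With LPS under NR4A3 siRNA 4 were lower, beside 3.81%, and 1 higher, beside 5.66% (median -0.31). For silencing with LPS the median was -0.20, larger in size than the members' -0.09. There 2 of the 33 were lower past 1.5-fold, beside 2.56%, and none was higher, beside 2.02%. Rrm2, a subunit of ribonucleotide reductase, stood at 9.82 and 7.58 with control siRNA and at 9.11 and 7.40 with NR4A3 siRNA. Gins3 of the replicative helicase and the thymidylate synthase gene Tyms showed another pattern, lower with NR4A3 siRNA in both states (-0.97 and -0.86 for Gins3, -0.90 and -0.70 for Tyms) and higher with LPS (0.45 and 0.44 under control siRNA). In the additive fit silencing lowered 7 of 28 replication genes (limma), beside 4.51% of all genes in the fit.

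The regulators of mitotic transcription had smaller medians than the members. For silencing with LPS, however, more of them passed 1.5-fold, 3 of 23 against 1 of 45 members. Foxm1, the forkhead factor of G2 and M phase genes, stood at 7.63 and 6.55 with control siRNA and at 6.98 and 6.26 with NR4A3 siRNA, and it fell with LPS on average (limma, adjusted p = 0.00225). E2f5, a repressor E2F, went the other way with LPS (1.31 under control siRNA) and was lower with silencing in both states (-0.66 and -0.95). Of 23 regulators, 2 were at least 1.5-fold lower with silencing in unstimulated cells, beside 2.65% of all named genes, and 3 with silencing under LPS, beside 2.56%, among them the pocket protein gene Rbl2 (-0.83). With LPS under control siRNA 2 were lower, beside 5.21%. The medians were -0.08, -0.05 and -0.04. Among G1 cyclins, Ccnd2 was higher with LPS, from 9.75 to 12.72 with control siRNA and from 9.69 to 12.12 with NR4A3 siRNA. Ccnd1 was at -0.52 and -0.68 in the same comparisons.

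Genes that restrain the cell cycle did not share a direction. Cdkn2c, the p18 inhibitor of Cdk4 and Cdk6, stood at 8.97 and 7.83 with control siRNA and at 7.64 and 6.99 with NR4A3 siRNA, lower with silencing in both states (limma, adjusted p = 0.0113) and with LPS. Cdkn2b, the p15 inhibitor, was higher with LPS under either siRNA, by 1.15 and 1.38. The kinase Wee1, which keeps Cdk1 inactive, and the antiproliferative gene Btg2 were at -0.65 and -0.68 for LPS under control siRNA. Cdkn1a and Trp53 had no probe set with a single symbol in the annotation used and were not analysed here.

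**Figure D5:**
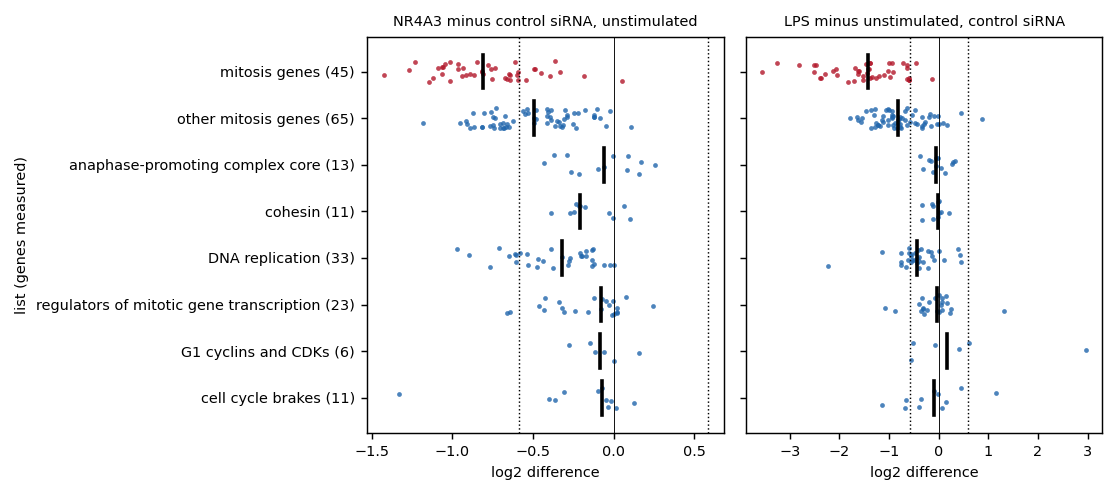
Log2 differences of single genes (points) and the median (black bar) of each list, for silencing in unstimulated cells (left) and LPS under control siRNA (right). Dotted lines mark 1.5-fold, and the number of genes measured stands in parentheses. Mitosis genes and the further mitosis genes have medians to the left of 0 in both panels, whereas the core anaphase-promoting complex and cohesin genes stay inside the dotted lines.

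Genes outside the list whose levels over the 4 arrays lay nearest to the mean profile of the members were searched. The search covered 10004 genes whose mean level reached the median of named genes, so dimmer genes could not enter. Likeness was the root mean square distance of log2 levels after each gene's own mean was subtracted. The nearest was Ncaph, the kleisin subunit of condensin, at a distance of 0.06. Il6st, the gp130 chain of cytokine receptors, followed at 0.07, then the phosphatase gene Cdkn3 at 0.08, Igflr1 at 0.08, and the histone chaperone gene Asf1b, Kif18b, Cenpm and Sgo2a at 0.12 each. Within the list Ccnb2 (0.94), Ccna2 (0.82), Incenp (0.69) and Plk1 (0.63) lay farthest from the mean profile. For the cyclins and Plk1 the levels followed the same order with wider spacing.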

How the data were processed

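Total RNA of 4 samples was measured on 1 Affymetrix Mouse Gene 1.0 ST array each. Per the labels, the authors deposited log2 values from RMA, quantile-normalized. Affymetrix Expression Console 1.1 is listed in the submitters' processing notes, and GeneSpring in the design text. The build and any filter were not given in the sources used here. Of 28856 probe sets, 21789 had 1 gene symbol in the platform annotation, 1621 had several and 5446 had none here, and only the first kind was used. Each of 19938 genes was taken at its brightest probe set by mean over the arrays. Top2a was the 1 member with several. Gene lists, marker lists and the members were chosen with earlier results of these data known. Named were all measured members, up to 4 genes per list with the largest differences past 1.5-fold, and the 8 genes nearest to the mean profile. Named beyond this rule were markers and genes not matched.

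Differences are between 2 arrays and have no test. The additive fit (limma 3.58.1 in R 4.3.3, lmFit and eBayes, siRNA and LPS, Benjamini-Hochberg, adjusted p under 0.05) used the 10034 genes whose mean over the arrays reached 6.66, the median of named genes. It was tested on simulated data with known LPS changes. Those data held no silencing effect and no difference between LPS effects, so the trial does not cover these.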

Additional observations from a re-analysis of the deposited data

Results flagged for a closer look

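Mki67 had LPS differences of opposite direction under the 2 siRNAs, past 1.5-fold in both: -0.64 with control siRNA and 0.60 with NR4A3 siRNA. Each value comes from 1 pair of arrays, and the difference between them, 1.24, was not tested. Under the repeated quantile normalization the values were -0.65 and 0.53.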

How the results depend on the processing

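Of 117 combinations of a result and an alternative, 101 stayed the same. Their direction held, within 1.5 times the count or 0.1 of the median. No median reversed, and a count cannot. Many of the 101 were counts of higher members that were 0 in the main run and stayed 0. The alternatives were median centring, repeated quantile normalization, cyclic loess, averaged probe sets, other folds and other filters. At 2-fold, 12 members were lower with silencing in unstimulated cells, and 0 with silencing under LPS. At the lower fold tried, 7 were lower and 2 higher with silencing under LPS. The share of all named genes past that lower fold was not taken, so these counts are not read as a result about the members. Restricted to members whose mean reached the median, 28 were lower with LPS under control siRNA, with a median of -1.57, and the median with NR4A3 siRNA was -1.03. The 1 member higher with LPS under NR4A3 siRNA, Mki67, gave 0 with repeated quantile normalization, with cyclic loess and at 2-fold. Members that silencing lowered in the additive fit numbered 7 with median centring, 6 with the mean of probe sets, 1 with repeated quantile normalization, 1 with cyclic loess, 1 with genes reaching the median on at least 1 array and 0 with all genes. Over all genes in the fit, silencing called 783, against 442 with cyclic loess and 156 with all genes entered. The cause was not tested. No paired analysis was possible because each condition has 1 array, and leaving out an array leaves the additive fit no residual degree of freedom. Quantile normalization would hide a shift of most genes in 1 direction. With LPS, most members lay below the array median.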
